A study of Mus musculus with 12 samples.

Results

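*Ccl2*, *Ccl7*, and *Ccl8*, which encode the monocyte chemoattractant proteins MCP-1, MCP-3, and MCP-2, were 3 of the 43 cytokine and chemokine genes quantified by NanoString in 12 B16.F10 tumors. They were taken by name as the family of monocyte chemoattractants on the panel, and all 3 were measured in every tumor. B16.F10 is a murine melanoma cell line. The tumors grew subcutaneously in C57BL/6 mice aged 6 to 8 weeks until they reached about 200 mm3. Each tumor then received 1 intratumoral injection of 100 µL and was harvested 6 hours later. PBS was given to 4 tumors as the negative control, free D-PDB, the polymer carrier without DNA, was given to 4 tumors as the vehicle control, and NanoISD, D-PDB loaded with the double-stranded DNA that activates cGAS, was given to 4 tumors at 2 µg. No group of these 12 tumors received the DNA without the carrier. The study describes the tumors of a group as biological replicates.

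NanoString nCounter counts transcripts directly with fluorescent barcodes, and 100 ng of RNA from each tumor was hybridized. The deposited unit is the log2 fold change of a gene relative to the PBS-treated tumors after scaling to 5 house-keeping genes. The mean of the PBS-treated tumors is therefore 0 for every gene, and a value of 1 is a doubling. The values of 2 genes can be compared as changes but not as amounts of transcript. Raw probe counts were not used here, so the depth is unknown. The precision depends on the number of tumors, their spread, and that depth, whose part could not be examined. Differences between treatments were tested with limma on the 12 tumors together, and p-values were adjusted over the whole panel of 43 genes, with 0.05 as the threshold. For a single gene the two-sided exact permutation p is given as well, and 4 tumors against 4 allow no exact p below 0.0286. None of the 48 probes targets the melanocyte genes *Mlana*, *Pmel*, *Tyr*, or *Dct*, so the tissue label could not be examined, and none targets *Ccr2*, the main receptor of CCL2 and CCL7.

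Monocyte chemoattractant proteins are small secreted CC chemokines. CCL2 and CCL7 bind the receptor CCR2 and draw inflammatory monocytes out of the bone marrow and into inflamed tissue, where these cells become macrophages and dendritic cells. Mouse CCL8 differs from its human namesake in that it is best known as an agonist of CCR8, a receptor of T helper cells and other lymphocytes. Tumor cells, fibroblasts, endothelial cells, and macrophages can all make these proteins, and the cytosolic DNA sensor cGAS reaches their genes through STING, NF-κB, and type I interferon. In RNA from whole tumors, more cells of a producing type and more RNA per cell cannot be told apart.

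The genes lie in 1 cluster on mouse chromosome 11. In the RefSeq annotation of GRCm38.p6, *Ccl2* and *Ccl7* are direct neighbors, and *Ccl11*, the long non-coding RNA *Gm38913*, and *Ccl12* lie between *Ccl7* and *Ccl8*. The panel has no probe for *Ccl11* or *Ccl12*. The probe sequences were not used here, so cross-hybridization between these related genes was not examined. Of the 3 members *Ccl8* had an entry in the RefSeq promoter table used here, and *Ccl2* and *Ccl7* had none, so the promoter of *Ccl8* is shown. The 250 bases before its start (RefSeq, GRCm38.p6, chr11:82114935-82115184, plus strand) read as follows, with the TATA box in capitals.

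Ccl8 promoter: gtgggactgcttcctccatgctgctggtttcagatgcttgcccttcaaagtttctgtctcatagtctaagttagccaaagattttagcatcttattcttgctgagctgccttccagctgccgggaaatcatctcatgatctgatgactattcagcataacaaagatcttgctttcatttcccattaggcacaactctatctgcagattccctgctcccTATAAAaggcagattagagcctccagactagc

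The TATA box, searched as TATAAA on both strands, ends 27 bases before the start, and 12.4% of 32851 RefSeq mouse promoters hold these letters in the same window. The NF-κB consensus, the core of the interferon-stimulated response element (GAAANNGAA), and the AP-1 motif (TGANTCA) had no match on either strand of this window in *Ccl8*. Across all promoters 7.25%, 7.13%, and 6.75% hold these 3 motifs. Of the 12 CC chemokine genes on the panel 8 had a promoter in the table, and among these 8 the NF-κB consensus was found in *Ccl1*, *Ccl9*, and *Ccl20*, and the interferon element in *Ccl1* and *Ccl3*. These matches describe letters in the window. Binding was not measured.

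All 3 monocyte chemoattractant genes rose after NanoISD treatment relative to PBS treatment. *Ccl8* and *Ccl7* rose almost 5-fold and *Ccl2* almost 4-fold on average, with tumors that differed widely within the NanoISD group. *Ccl2*, the classical attractant of inflammatory monocytes, was at 4.08, 0.20, 2.03, and 1.28 in NanoISD tumors 1, 2, 3, and 4, against 0.49, -0.23, -0.06, and -0.20 in PBS tumors 1 to 4. NanoISD tumor 1 was far above the rest and NanoISD tumor 2 lay below PBS tumor 1, so that the groups overlapped by this pair of tumors. *Ccl7*, which shares the receptor CCR2, was at 4.44, 0.37, 2.47, and 1.64 after NanoISD, and at 0.67, -0.27, -0.19, and -0.21 after PBS. The pattern was that of *Ccl2*, with the same overlap between NanoISD tumor 2 and PBS tumor 1. *Ccl8* was at 4.47, 0.75, 1.77, and 2.19 after NanoISD, and at 0.44, 0.37, -0.93, and 0.12 after PBS. For this gene the groups did not overlap, since even NanoISD tumor 2 exceeded PBS tumor 1.

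**Figure D1:**
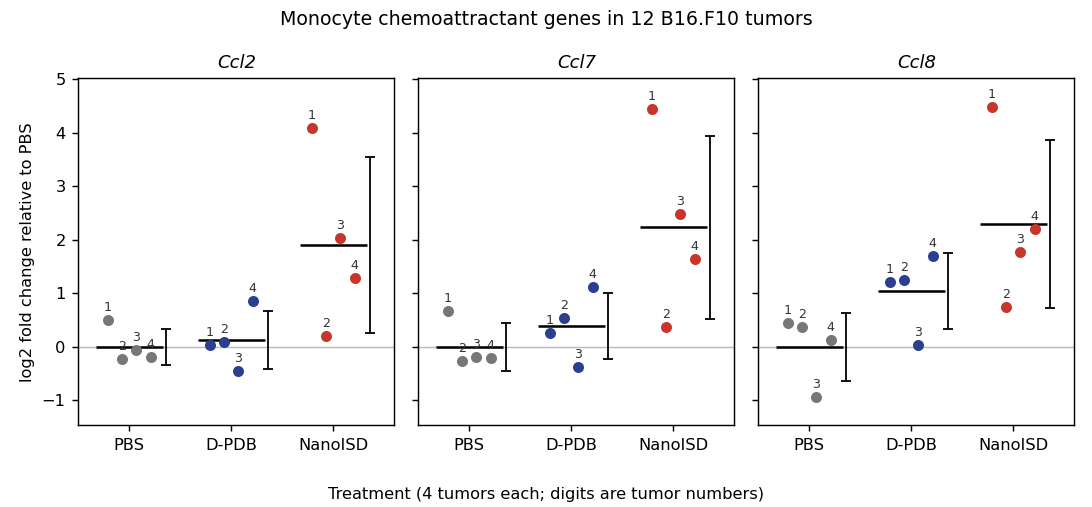
Log2 fold change relative to PBS (vertical axis) of *Ccl2*, *Ccl7*, and *Ccl8* in each of the 12 tumors by treatment. Points are tumors with their number, horizontal lines are means, and the bars beside them are 1 SD (n = 4). NanoISD tumor 1 has the highest value of all 3 genes (4.08, 4.44, and 4.47) and NanoISD tumor 2 the lowest of its group (0.20, 0.37, and 0.75).

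*Ccl8* averaged 2.30 ± 1.57 (SD, n = 4) after NanoISD, a 4.91-fold rise over PBS. The limma difference was 2.30 with a standard error of 0.67 and a 95% interval from 0.85 to 3.74 (adjusted p = 0.0155, exact permutation p = 0.0286). *Ccl7* averaged 2.23 ± 1.71 (SD, n = 4), a 4.69-fold rise, with an interval from 0.76 to 3.70 (limma adjusted p = 0.0170, exact permutation p = 0.0571). *Ccl2* averaged 1.90 ± 1.64 (SD, n = 4), a 3.73-fold rise, with an interval from 0.50 to 3.29 (limma adjusted p = 0.0275, exact permutation p = 0.0571). Thus all 3 genes passed the limma threshold, where 51.2% of the 43 panel genes were called higher after NanoISD. The fit shares the spread of a gene over the treatments, but the NanoISD-treated tumors varied more. For *Ccl2* the SD was 1.64 after NanoISD, 0.335 after PBS, and 0.55 after D-PDB, so the intervals against PBS can be too narrow. A complete separation of the tumors was seen in 41.9% of the panel genes and in 1 of these 3.

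By size of the difference, *Ccl8* was eighth, *Ccl7* ninth, and *Ccl2* fifteenth among the 43 genes, and the median difference over the panel was 1.20. The calls of *Ccl7* and *Ccl8* kept their side of the threshold when any single tumor was left out. Their margin was narrow, with limma adjusted p up to 0.0494 for *Ccl7* and 0.046 for *Ccl8*. The call of *Ccl2* was lost without PBS tumor 2, 3, or 4, without NanoISD tumor 1 or 3, and in a fit restricted to these 2 treatments. Its limma adjusted p was then between 0.0531 and 0.0665. NanoISD tumor 1 moved the size of the differences most. Without it they were 1.17 for *Ccl2*, 1.49 for *Ccl7*, and 1.57 for *Ccl8*. Without both NanoISD tumors 1 and 2, the highest and the lowest of the group, they were 1.66, 2.06, and 1.98. This setting was chosen after the values had been seen. Leaving out both extremes narrows the spread by construction, so no test is drawn from it.

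None of the 3 genes passed the test between free D-PDB and PBS, and *Ccl8* had the highest mean of them after D-PDB. *Ccl2* was at 0.04, 0.08, -0.46, and 0.86 in D-PDB tumors 1 to 4, and *Ccl7* at 0.26, 0.54, -0.37, and 1.12. Both genes overlapped the PBS-treated tumors, with D-PDB tumor 4 above all of them and D-PDB tumor 3 below all of them. *Ccl8* was at 1.21, 1.24, 0.04, and 1.69. Of these tumors 3 lay above all PBS-treated tumors, and D-PDB tumor 3 was within the range of the PBS group.

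The difference between D-PDB and PBS was 1.04 for *Ccl8* (95% interval -0.40 to 2.49, limma adjusted p = 0.813, exact permutation p = 0.114), or 2.06-fold. It ranged from 0.73 to 1.38 when single tumors were left out. For *Ccl7* the difference was 0.39 (interval -1.08 to 1.86, limma adjusted p = 0.831), and for *Ccl2* it was 0.13 (interval -1.27 to 1.53, limma adjusted p = 0.915). The sign of the *Ccl2* difference rested on D-PDB tumor 4, and without that tumor it was -0.11. With all tumors in the fit, all 3 intervals include 0 and reach above 1.5, so that neither 0 nor a rise of that size lies outside them. This fit shares the wide NanoISD spread (for *Ccl8* SD 1.57, against 0.635 after PBS and 0.71 after D-PDB). For *Ccl8* the limma p was 0.0377 unadjusted (0.389 adjusted) with only PBS and D-PDB in the fit. It was 0.0261 (0.296) with array weights and 0.0374 (0.435) without NanoISD tumor 1. Whether the *Ccl8* interval includes 0 thus depended on the fit, and the adjusted p stayed above 0.05. Over the panel limma with all tumors called 0 of 43 genes (0%). At an unadjusted p of 0.05 in that fit, 1 gene was higher, which was none of these 3, and 0 were lower. *Ccl8* had the fourth largest difference of the panel, and the median over the 43 genes was 0.24.

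NanoISD was compared with D-PDB to separate the DNA-loaded particle from its carrier. Here 0 of the 3 genes passed the limma threshold, against 25.6% of the panel, although *Ccl2* and *Ccl7* came near it. NanoISD exceeded D-PDB by 1.77 for *Ccl2* (interval 0.37 to 3.16, limma adjusted p = 0.0516, exact permutation p = 0.0571) and by 1.84 for *Ccl7* (interval 0.37 to 3.31, limma adjusted p = 0.0516, exact permutation p = 0.0857). For *Ccl8* the difference was 1.25 (interval -0.20 to 2.70, limma adjusted p = 0.159, exact permutation p = 0.171).

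For each of the 3 genes D-PDB tumor 4 lay above NanoISD tumor 2, as did D-PDB tumor 2 for *Ccl7* and D-PDB tumors 1 and 2 for *Ccl8*. None of the 3 genes was therefore among the 18.6% of panel genes with complete separation in this comparison. Leaving out NanoISD tumor 2 gave differences of 2.33 for *Ccl2*, 2.46 for *Ccl7*, and 1.77 for *Ccl8*, and all 3 passed (limma adjusted p = 0.00562, 0.00525, and 0.0395). *Ccl2* and *Ccl7* also passed without D-PDB tumor 4, at differences of 2.01 and 2.09 (limma adjusted p = 0.0433 for both). With NanoISD tumor 1 left out they were 1.04, 1.11, and 0.53, and none passed.

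**Figure D2:**
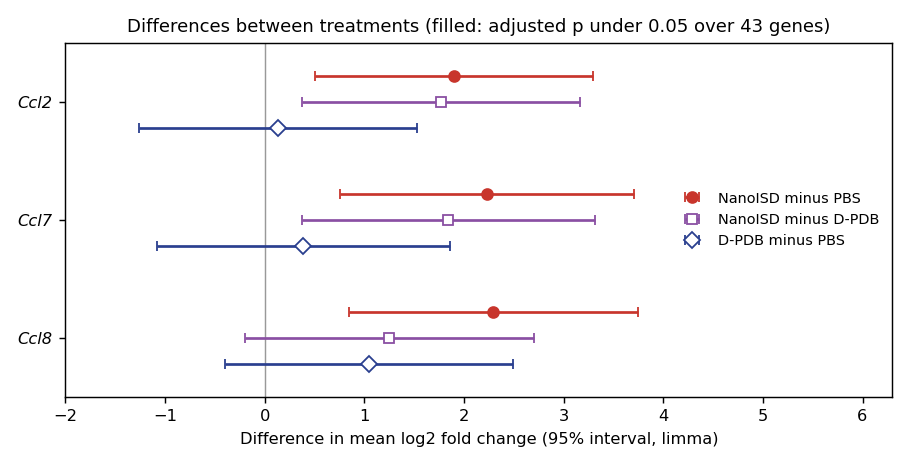
Differences in mean log2 fold change between treatments (horizontal axis) for the 3 genes, with 95% intervals from limma on 12 tumors. Filled symbols passed an adjusted p of 0.05 over the 43 panel genes, which only the differences between NanoISD and PBS did (1.90, 2.23, and 2.30), and the D-PDB difference of *Ccl8* (1.04) is larger than those of *Ccl2* (0.13) and *Ccl7* (0.39).

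The mean order of the treatments was thus PBS, D-PDB, and NanoISD for all 3 genes. Between PBS and D-PDB no gene of the 3 passed the adjusted threshold. Between D-PDB and NanoISD the intervals of *Ccl2* and *Ccl7* lay above 0 without passing the adjusted threshold. Of 23 alternative settings, including that without NanoISD tumors 1 and 2, *Ccl2* passed it in 6 and *Ccl7* in 5. With all 12 tumors both passed when *Hdac3* or *Rpl19* was left out of the scaling, and *Ccl2* with array weights. Neither gene passed without *Gapdh*, *Gusb*, or *Tbp*, or in a fit of these 2 groups alone (limma adjusted p = 0.111 for both). The interval of *Ccl8* included 0. Averaged over the 3 genes, the tumors were at 4.33, 0.44, 2.09, and 1.70 after NanoISD, at 0.50, 0.62, -0.26, and 1.22 after D-PDB, and at 0.53, -0.04, -0.39, and -0.10 after PBS. On this average D-PDB tumor 4, and also D-PDB tumors 1 and 2, lay above NanoISD tumor 2.

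To ask whether the members responded unequally, the difference between 2 genes was taken within each tumor, where the scaling to the house-keeping genes cancels. The 3 pairs of genes were compared between the 3 pairs of treatments by two-sided exact permutation tests, with adjustment over these 9 tests. *Ccl7* exceeded *Ccl2* by 0.36, 0.17, 0.44, and 0.36 in NanoISD tumors 1 to 4 and by 0.22, 0.46, 0.09, and 0.26 in D-PDB tumors 1 to 4. In the PBS-treated tumors it differed by 0.18, -0.04, -0.13, and -0.01. The excess was small, but it was positive in 8 of 8 treated tumors, with a single PBS-treated tumor in their range.

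The mean excess of *Ccl7* over *Ccl2* was 0.33 ± 0.11 (SD, n = 4) in the NanoISD group. In the D-PDB group it was 0.26 ± 0.15 (SD, n = 4), and against PBS both gave the same result (exact permutation p = 0.0571, adjusted p = 0.129). *Ccl8* exceeded *Ccl2* by 1.17, 1.16, 0.50, and 0.83 in the D-PDB-treated tumors, with 1 tumor below the highest PBS-treated tumor, at 0.60. The mean was 0.92 ± 0.32 (SD, n = 4), against an SD of 0.64 after PBS (exact permutation p = 0.0571, adjusted p = 0.129). After NanoISD the same difference was 0.40 ± 0.49 (SD, n = 4), lower than after D-PDB by 0.52 (exact permutation p = 0.143, adjusted p = 0.214).

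*Ccl8* minus *Ccl7* was at 0.66 ± 0.23 (SD, n = 4) after D-PDB and 0.07 ± 0.55 (SD, n = 4) after NanoISD, a difference of -0.59 between the treatments (exact permutation p = 0.0571, adjusted p = 0.129). *Ccl8* was thus above *Ccl2* and *Ccl7* in all 4 D-PDB-treated tumors, whereas it was below both in NanoISD tumor 3, at 1.77 against 2.03 and 2.47. None of the 9 tests passed after adjustment, and their smallest possible p could pass only with most of them at that limit. They could therefore hardly pass, and no conclusion on equal responses is drawn.

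**Figure D3:**
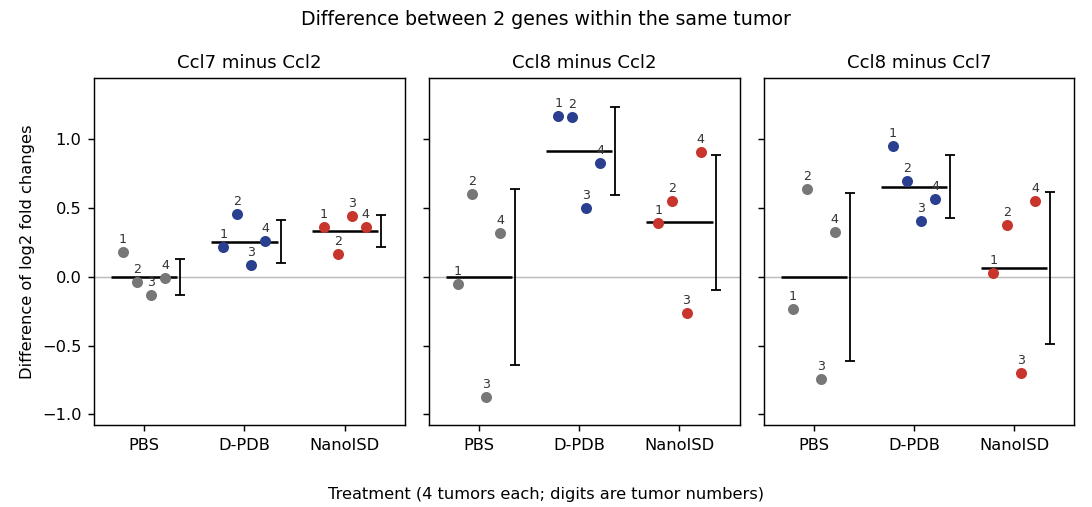
Difference between the log2 fold changes of 2 genes in the same tumor (vertical axis) by treatment. Points are tumors with their number, lines are means, and bars are 1 SD (n = 4). The D-PDB-treated tumors lie between 0.50 and 1.17 for *Ccl8* minus *Ccl2*, and the PBS-treated tumors between -0.87 and 0.60.

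Over the 12 tumors *Ccl2* and *Ccl7* had nearly the same profile. The likeness of 2 genes was measured as the root-mean-square difference of their log2 values over the 12 tumors, which is 0 for identical genes. It was 0.27 for *Ccl2* and *Ccl7*, each of which was the nearest of the 42 other panel genes to the other. Over the 903 pairs of panel genes this was the fourth smallest value, and the median was 1.06. *Ccl8* stood further away, at 0.57 from *Ccl7* and 0.72 from *Ccl2*, and 10 panel genes were nearer to *Ccl2* than *Ccl8* was.

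Apart from the members, the genes nearest to *Ccl2* were *Ccl3* (0.41), the neutrophil chemokine *Cxcl1* (0.47), and the anti-inflammatory cytokine *Il10* (0.47). Those nearest to *Ccl7* were *Ccl3* (0.44), *Ccl9* (0.45), and *Cxcl1* (0.48). The gene nearest to *Ccl8* was *Cxcl12* (0.51), which encodes a chemokine made by stromal cells, followed by *Ccl7* and then by *Ccl9* (0.67) and *Ccl3* (0.69). These distances are descriptions and were not tested.

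The other CC chemokines on the panel shared the direction of the members. The NanoISD difference from PBS was positive for 9 of 9, 6 of 9 passed in limma with 0 lower, and the median difference was 1.57, against 1.20 over all 43 genes and 2.23 over the 3 members. The 3 with the largest differences, all of them attractants of leukocytes, were *Ccl4*, which rose by 2.53, *Ccl9*, by 2.09, and *Ccl3*, by 2.05 (limma adjusted p = 0.00476, 0.0382, and 0.00476). Of the ligands of CCR4 and CCR8, which attract T helper 2 and regulatory T cells, *Ccl17* rose by 1.57 and *Ccl1*, the other CCR8 ligand besides *Ccl8*, by 1.53 (limma adjusted p = 0.0322 and 0.0362). *Ccl22* was higher by 1.20 and did not pass (limma adjusted p = 0.0719).

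The epithelial chemokines *Ccl20* and *Ccl28* had the smallest differences among the CC chemokines, 0.67 and 0.39, and did not pass. *Ccl20* shared its lowest value in 8 tumors, which can hide a difference below that value. No member shared its lowest value between tumors. The count of 6 was 3 without NanoISD tumor 1 and 3 without PBS tumor 2. Against D-PDB 2 of the 9 passed, *Ccl4* and *Ccl3* (limma adjusted p = 0.0132 and 0.0157), while the members did not. This count became 5 when NanoISD tumor 2 was left out, 4 or 1 when D-PDB tumor 4 or 3 was left out, and 0 in a fit of these 2 groups alone.

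Between D-PDB and PBS 0 of the 9 genes passed, with a median difference of 0.20. The largest difference among these 9 genes was that of *Ccl1*, 1.03, next to the 1.04 of *Ccl8*. *Ccl1* was at 1.79, 0.89, -0.61, and 2.06 in D-PDB tumors 1 to 4, with D-PDB tumor 3 lowest and D-PDB tumor 4 highest as for the members. Over the panel D-PDB tumor 4 was highest for 28 of 43 genes. The tumor most often lowest over the panel was D-PDB tumor 1, for 22 of 43, followed by D-PDB tumor 3, for 17 of 43. The comparisons with PBS share the same control tumors and are given side by side for that reason.

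**Figure D4:**
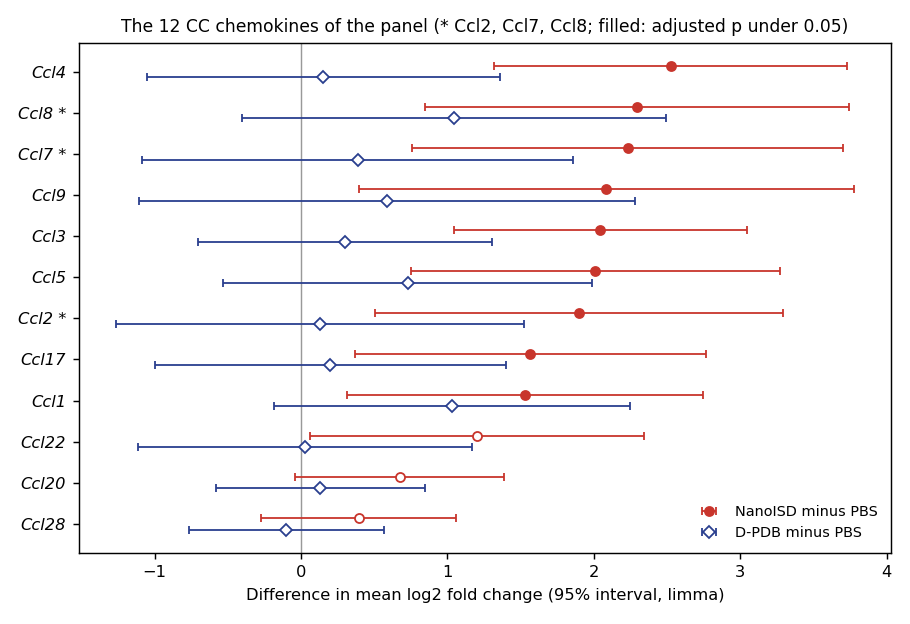
Differences from PBS in mean log2 fold change (horizontal axis, 95% intervals from limma) for the 12 CC chemokine genes of the panel, ordered by the NanoISD difference. Circles are NanoISD and diamonds D-PDB, and filled symbols passed an adjusted p of 0.05. *Ccl8* (2.30), *Ccl7* (2.23), and *Ccl2* (1.90) lie among the 9 genes that passed after NanoISD, and no D-PDB difference passed.

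Within the NanoISD group the members were highest in another tumor than the signature cytokines of STING activation that the study names. All 3 members were highest in NanoISD tumor 1, as were 7 of the 9 other CC chemokines and 28 of the 43 panel genes. *Ifnb1*, *Cxcl10*, *Tnfa*, and *Il6* were all 4 highest in NanoISD tumor 3. *Cxcl10*, an interferon-induced chemokine, was at 3.59, 2.07, 5.64, and 4.67 in NanoISD tumors 1 to 4. *Ifnb1*, which encodes interferon-β, was at 0.92, 0.02, 1.38, and 0.28. *Il6* and *Tnfa* were nearly as high in NanoISD tumor 1, at 4.42 and 0.99, as in NanoISD tumor 3, at 4.73 and 1.04. Averaged over these 4 cytokines the tumors were at 2.48, 1.07, 3.20, and 2.11, so that tumor 3 exceeded tumor 1, whereas tumor 1 exceeded tumor 3 by more than 2 log2 units for the average of the members. Both groups of genes were lowest in NanoISD tumor 2. These are single tumors, and the difference in order was not tested.

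Of the 4 signature cytokines *Cxcl10* and *Il6* passed against PBS, with differences of 3.99 and 3.68 (limma adjusted p = 0.000448 for both). *Tnfa* and *Ifnb1* differed by 0.54 and 0.65 and did not pass (limma adjusted p = 0.188 and 0.178). These genes were taken from qPCR in tumors given the same treatments. Whether those tumors include the ones analysed here is not given in the sources used here, so the list is not taken as independent evidence.

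*Csf1*, the growth factor of monocytes and macrophages, rose by 1.81 (limma adjusted p = 0.0115), and *Csf2* was higher by 1.20 (limma adjusted p = 0.0607).

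**Figure D5:**
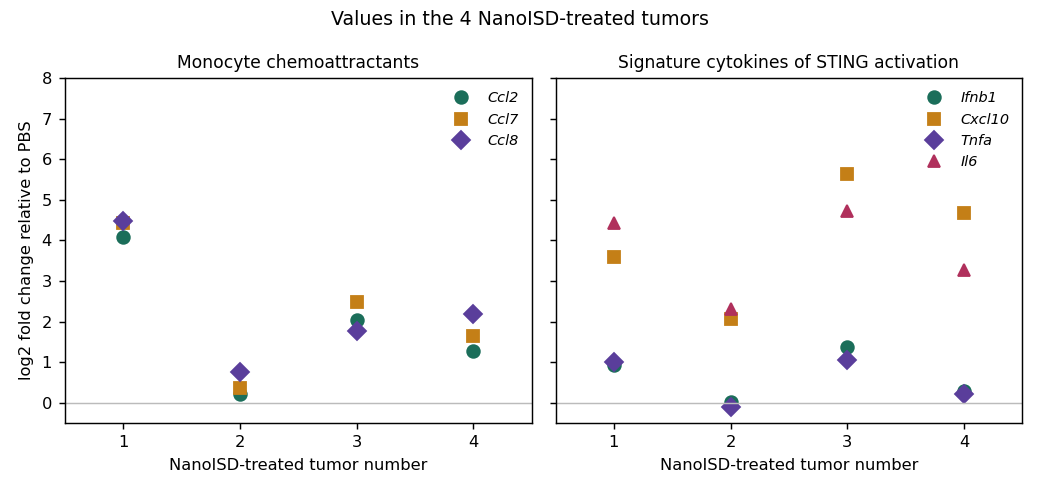
Log2 fold change relative to PBS (vertical axis) in the 4 NanoISD-treated tumors (horizontal axis) for the 3 monocyte chemoattractants (left) and 4 signature cytokines of STING activation (right). The chemoattractants peak in tumor 1 (4.08 to 4.47) and the cytokines in tumor 3, where *Cxcl10* reached 5.64. Both are lowest in tumor 2. *Il6* and *Tnfa* are nearly as high in tumor 1 (4.42 and 0.99) as in tumor 3 (4.73 and 1.04).

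Lists for other cell types of the tumor were examined as well. Of 5 lymphocyte-derived genes *Fasl*, the ligand that triggers apoptosis, rose after NanoISD by 1.19 (limma adjusted p = 0.0224), and *Xcl1*, *Lta*, *Il2*, and *Il3* did not pass. The mean of the 5 genes ranged from -0.06 to 0.62 in the NanoISD-treated tumors, from -0.57 to 0.05 in the D-PDB-treated tumors, and from -0.23 to 0.16 in the PBS-treated tumors. Of the platelet-associated genes *Pf4*, which macrophages can also express, and *Ppbp*, 0 of 2 passed. Their mean was 2.05 in NanoISD tumor 1 and between -0.26 and 0.20 in the other NanoISD-treated tumors, and it was 0.84 in D-PDB tumor 4 and between -0.60 and 0.10 in the other D-PDB-treated tumors. The tumors with the highest *Ccl2*, *Ccl7*, and *Ccl8* in each of these groups thus also had the highest mean of *Pf4* and *Ppbp*, and NanoISD tumor 1 also had the highest lymphocyte mean. NanoISD tumor 1 and D-PDB tumor 4 were each highest for 28 of the 43 panel genes, so a shared highest tumor was common on the panel. The part of these cell types in the result was not tested. The house-keeping genes lay between -0.51 and 0.28 in all tumors, and *Gapdh* was lower after NanoISD, at a mean of -0.32. Scaling without any 1 of the house-keeping genes left the NanoISD difference of *Ccl2* between 1.82 and 1.95, of *Ccl7* between 2.15 and 2.28, and of *Ccl8* between 2.21 and 2.34.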

How the data were processed

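NanoString nCounter data of 12 B16.F10 tumors were used, 4 for each of PBS, D-PDB, and NanoISD. Tumor RNA was hybridized to 48 probes and read on an nCounter MAX Analysis system. The authors used nSolver and deposited, for each tumor, the log2 fold change relative to PBS and the house-keeping genes, with 0 missing values. The nSolver version, background threshold, and hybridization batches are not given in the sources used here, and the depth per tumor is unknown.

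No pseudocount, filter, or further scaling was applied to the deposited log2 values. Of the 48 gene names 47 matched RefSeq symbols and 1 a synonym. The members and gene lists were chosen with earlier results of these data known. Values are given for the members, for at most 3 genes of each list with the largest NanoISD difference from PBS, and for the 3 genes nearest to each member. *Tnfa* falls outside this rule and was chosen after its values were seen. The result of 1 gene list is not reported here.

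limma 3.58.1 in R 4.3.3 (lmFit, eBayes) was fitted to 43 panel genes and 12 tumors, and p-values were adjusted by Benjamini-Hochberg. Exact permutation tests, distances, motif searches, and plots used scipy 1.17.1 and numpy 2.4.6 in Python 3.11.15, with matplotlib 3.10.9 and pandas 2.3.3. The fits were tested on simulated data in which each gene had the same spread in all 3 treatments. A wider spread in the NanoISD group, as in these tumors, was not simulated. Alternatives were other house-keeping genes, tumors left out, 2 groups, array weights, a robust variance prior, a replicate block, and all 48 probes.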

Additional observations from a re-analysis of the deposited data

Results flagged for a closer look

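In each group of 4 tumors, the gap between the highest or lowest tumor and its neighbor was compared with the range of the group for the 3 genes, their average, and their within-tumor differences. Of 21 groups 1 exceeded the critical value of Dixon's test, and chance would give 1.05. This was *Ccl7* after PBS, since PBS tumor 1, at 0.67, was separated from the remaining values (-0.27 to -0.19) by 0.915 of the whole range. *Ccl2* was highest in the same tumor, at 0.49, with a gap of 0.764. Without PBS tumor 1, the excess of *Ccl7* over *Ccl2* after NanoISD was 0.39. That tumor was the only PBS-treated one within the NanoISD range of this excess, so leaving it out separates the groups by construction, and no test is drawn from it.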

How the results depend on the processing

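The NanoISD differences from PBS of *Ccl7* and *Ccl8* passed in 23 of 23 alternatives, and that of *Ccl2* in 17. The highest limma adjusted p was 0.0494 for *Ccl7* and 0.046 for *Ccl8*, close to the threshold. The counts of alternatives include the setting without both NanoISD tumors 1 and 2, from which no test is drawn. With 2 groups in the fit *Ccl2* did not pass at 1.90 (limma adjusted p = 0.0573), and 2 panel genes and 0 other CC chemokines passed against D-PDB, against 11 and 2. The difference of *Ccl2* from D-PDB passed in 6 alternatives, which included scaling without *Hdac3* (1.77) or *Rpl19* (1.82), array weights (1.34), and leaving out both NanoISD tumors 1 and 2 (1.53). *Ccl7* passed in 5, with 1.85, 1.89, and 1.67 for the same scalings and tumors.

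With each tumor left out in turn, the NanoISD difference from PBS ranged from 1.17 to 2.46 for *Ccl2*, and that from D-PDB from 1.04 to 2.33 for *Ccl2*, 1.11 to 2.46 for *Ccl7*, and 0.53 to 1.77 for *Ccl8*. Panel genes called against D-PDB numbered 5 to 20, and other CC chemokines 3 to 7 against PBS and 1 to 5 against D-PDB. The D-PDB difference of *Ccl2* from PBS ranged from -0.11 to 0.33 and turned sign only without D-PDB tumor 4. After NanoISD relative to PBS, *Ccl7* minus *Ccl2* ranged from 0.29 to 0.39, and *Ccl8* minus *Ccl7* from -0.18 to 0.32, with the sign turned without PBS tumor 1 or 3 or NanoISD tumor 2 or 4. After D-PDB relative to PBS, *Ccl8* minus *Ccl2* ranged from 0.63 to 1.11 and *Ccl8* minus *Ccl7* from 0.41 to 0.87, with the groups separated without PBS tumor 2. Between NanoISD and D-PDB, *Ccl8* minus *Ccl7* ranged from -0.75 to -0.34, with the groups separated without NanoISD tumor 4. These separations follow from leaving out the overlapping tumor and are no test. The cause of these changes was not tested.

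The replicate numbers are shared by the groups, but same-numbered tumors did not deviate together in every pair (correlations over 43 genes between -0.52 and 0.47). With the replicate number as a block, the NanoISD differences from PBS stayed at 1.90, 2.23, and 2.30 (limma adjusted p = 0.0265, 0.0227, and 0.0167), 21 panel genes passed, and none of the calls of the 3 genes changed. The number of tumors limits these comparisons, and the part of the unknown depth could not be examined.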
